A study of Mus musculus with 17 samples.

Results

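The genes described here are 35 genes of the unfolded protein response and the integrated stress response, read in non-tumorous liver of mice. They were chosen by symbol from a list of chaperones of the endoplasmic reticulum (ER), stress sensors and ATF4 targets, and all 35 were found among the 52545 genes of the deposited expression table. All 35 also passed the filter on low values, as did 18624 genes in all. The 17 mice were male C57BL/6J animals of 32 weeks, with 1 RNA sequencing library each. The 6 mice of the CLDN1 mAb group had received 100 mg/kg of the liver carcinogen diethylnitrosamine (DEN) in week 1, the diet CDA-HFD (choline-deficient, amino acid-defined, high-fat), and 500 µg of a monoclonal antibody against claudin-1 by intraperitoneal injection 1 time a week for 16 weeks. The 6 mice of the Vehicle Control group had received the same DEN dose, the same diet and injections of PBS on the same schedule. The 5 mice of the Regular diet group were untreated, so carcinogen, diet and injections differ together between them and both other groups and their effects cannot be told apart. The samples were pieces of whole liver and hold every cell type of the organ.

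Proteins that enter the ER are folded by chaperones such as BiP (encoded by Hspa5) and by disulfide isomerases, and those that fail to fold are sent out for degradation. When unfolded proteins build up, the sensors IRE1 (Ern1), ATF6 and PERK (Eif2ak3) start the unfolded protein response. IRE1 splices the mRNA of XBP1, and XBP1 and cleaved ATF6 drive genes for chaperones and degradation. PERK phosphorylates eIF2, as do kinases that sense amino acid lack, viral RNA or haem lack; general translation drops while ATF4 is made, and ATF4 with CHOP (Ddit3) drives genes for amino acid supply, redox balance and feedback. That common arm is the integrated stress response. The hepatocyte secretes much of the protein of plasma and is rich in ER. Splicing of Xbp1, cleavage of ATF6 and phosphorylation of eIF2 are not seen in a table of gene levels.

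Letters that these factors are known to bind were searched for in the promoters of the genes. In RefSeq promoters of build GRCm38.p6, from 250 bases before to 50 bases after the start of the gene, 32 of the 35 genes had an entry, and Atf6, Hyou1 and Manf are named only. Of the 32, 15 held at least 1 of the 4 motifs searched and 17 held none. The ER stress response element ERSE (CCAAT and CCACG with 9 bases between them, either strand) is the site through which ATF6, with NF-Y, acts. It was found in 8 of 32 promoters (25%), against 37 of all 27025 genes with an entry (0.137%). The 35 genes were chosen for their known roles in these pathways, which builds a higher share into the choice. The shares of this and the other motifs are therefore a description and not separate support. Of the 8, 7 were among the 12 chaperones with an entry (Hspa5, Hsp90b1, Calr, Canx, Pdia6, Dnajc3 and Creld2), and the 8th was Syvn1, a ubiquitin ligase of ER-associated degradation. Hsp90b1 held a pair of matches. On the deposited scaling these genes were called lower in Vehicle Control than in Regular diet livers. Hspa5, Hsp90b1, Calr, Canx and Pdia6 were not called on equal library totals or after quantile normalization. Dnajc3, Creld2 and Syvn1 were called lower under all 4 scalings used below. The matches are given with 10 bases on each side, read along the motif, with CCAAT and CCACG in capitals.
Hspa5, chr2:34772015-34772053, plus strand: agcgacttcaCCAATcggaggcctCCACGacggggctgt
Hsp90b1, chr10:86705628-86705666, minus strand: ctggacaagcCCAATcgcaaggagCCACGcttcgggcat
Hsp90b1, chr10:86705523-86705561, plus strand: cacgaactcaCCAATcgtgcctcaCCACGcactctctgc
Calr, chr8:84847065-84847103, plus strand: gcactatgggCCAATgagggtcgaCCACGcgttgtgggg
Canx, chr11:50325790-50325828, minus strand: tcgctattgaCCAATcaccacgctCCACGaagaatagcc
Pdia6, chr12:17266481-17266519, plus strand: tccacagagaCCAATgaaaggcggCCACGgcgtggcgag
Dnajc3, chr14:118937817-118937855, plus strand: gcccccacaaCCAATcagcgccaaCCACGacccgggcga
Creld2, chr15:88819510-88819548, minus strand: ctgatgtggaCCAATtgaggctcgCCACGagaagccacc
Syvn1, chr19:6046522-6046560, plus strand: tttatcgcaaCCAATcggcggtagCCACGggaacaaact

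The shorter element ERSE-II (ATTGG, any base and CCACG, either strand) was in 2 of 32 promoters (6.25%), those of Dnajb11 and Herpud1, against 0.044% of all genes with an entry. The core of the XBP1 site UPRE (TGACGTG, either strand) was in the promoter of Hspa5 alone, against 2.224% of all genes with an entry. The element to which C/EBP and ATF4 dimers bind (TGATGNAA, either strand) was in 6 of 32 promoters (18.75%), against 4.511% of all genes with an entry. None of these 6 was a chaperone gene. They were Asns, Atf3, Nupr1, Trib3, Chac1 and Herpud1. On the deposited scaling, Asns, Atf3, Nupr1 and Trib3 were called higher in Vehicle Control than in Regular diet, Herpud1 was called lower and Chac1 was not called. The match of Trib3 lay after the gene's start and is not shown. The others are given with 10 bases on each side and the fixed letters of the element in capitals.
Asns, chr6:7693215-7693242, minus strand: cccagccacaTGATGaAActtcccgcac
Atf3, chr1:191183426-191183453, plus strand: gcggacttggTGATGcAAgtgcgagaag
Nupr1, chr7:126625563-126625590, plus strand: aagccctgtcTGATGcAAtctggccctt
Chac1, chr2:119351039-119351066, minus strand: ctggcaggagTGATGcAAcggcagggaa
Herpud1, chr8:94386307-94386334, minus strand: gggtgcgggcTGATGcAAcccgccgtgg
Herpud1 (ERSE-II), chr8:94386367-94386397, plus strand: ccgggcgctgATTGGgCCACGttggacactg
The upstream part of the Hspa5 promoter held both the UPRE core and the ERSE, in capitals here in that order. In each search a match is a match of letters, not a measured binding site.
Hspa5, chr2:34771840-34772089, plus strand: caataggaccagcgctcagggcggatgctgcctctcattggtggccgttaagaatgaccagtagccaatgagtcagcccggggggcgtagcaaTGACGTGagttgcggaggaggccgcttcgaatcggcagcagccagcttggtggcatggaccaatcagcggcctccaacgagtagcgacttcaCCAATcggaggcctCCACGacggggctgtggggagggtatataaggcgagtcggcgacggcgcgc

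Values below are the deposited normalized counts. Differences are log2 fold changes with their SE from a limma model of log2(value + 1). Changes of genes with low values come out too small on it. A gene was called at an adjusted p under 0.05. Depth was 27.7 to 59.5 M fragments per library, estimated from the step between low values. The deposited totals were 35.4 to 42.8 M in CLDN1 mAb, 29.7 to 42.1 M in Vehicle Control and 48.2 to 74.6 M in Regular diet, so the scaling matters and is taken up below. Regular diet replicate 1 stood apart from its group, with a median correlation to the other 4 libraries of 0.920, against 0.981 to 0.983 for those. Relative to its group it was high for short genes (0.82 on the log2 scale in the lowest of 4 bins of exon length, and -0.64 in the highest) and high for GC-rich genes (-0.54 in the lowest of 4 bins of GC content, and 0.71 in the highest). It was above all other Regular diet libraries for 18 of the 35 genes (51.4%; 42.2% of all genes tested) and below them for 10 (28.6%; 38.9% of all genes tested). Vehicle Control replicate 1 was low for GC-rich genes (-0.81 in the highest bin). Results that rest on Regular diet replicate 1 are given with and without it.

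**Figure D1:**
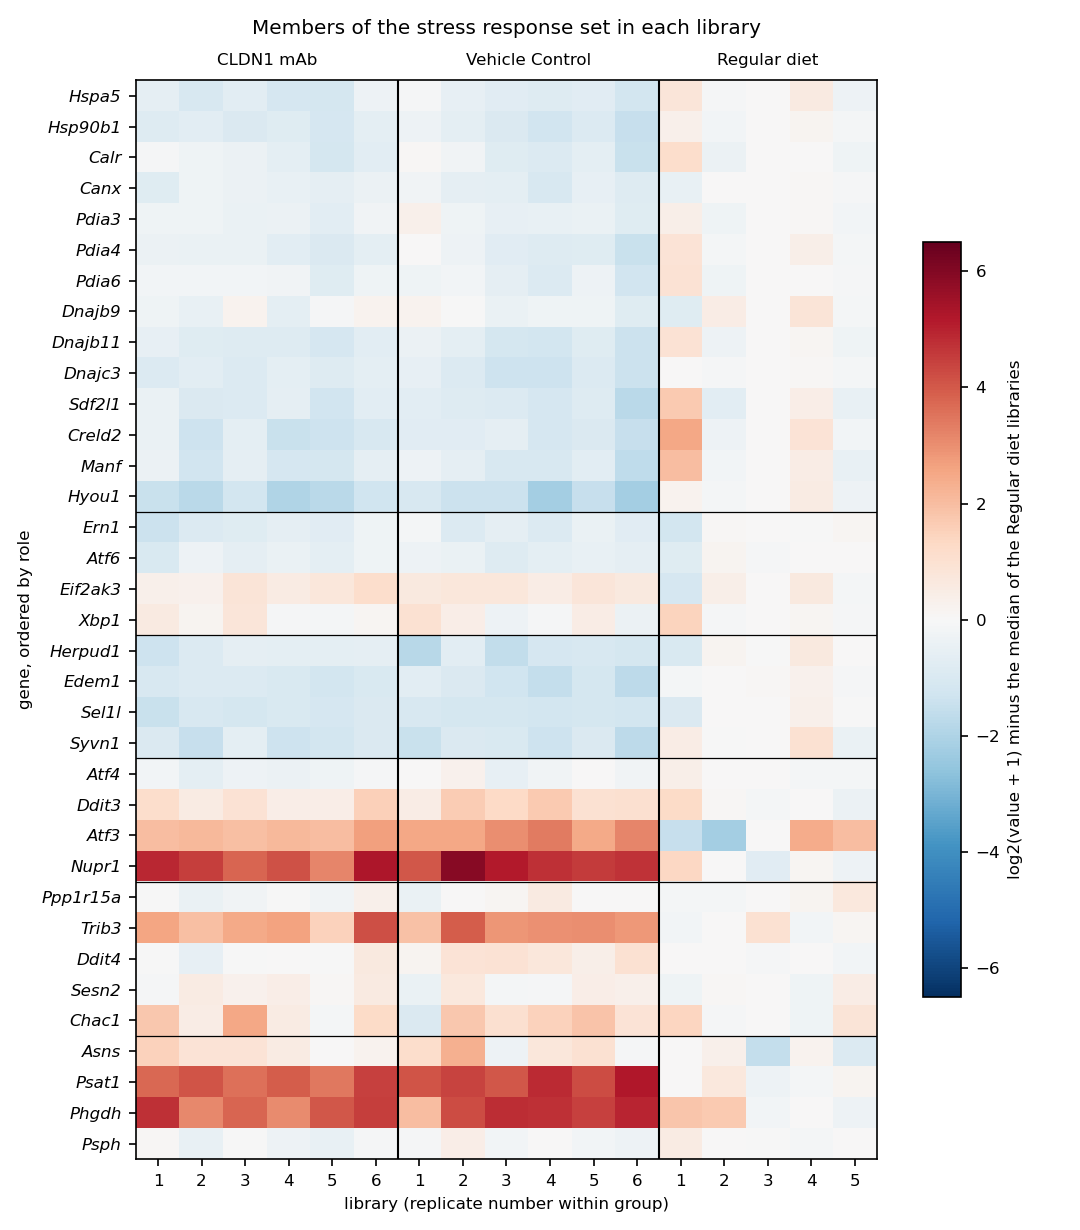
Levels of the 35 genes (rows, ordered by role, with lines between roles) in each of the 17 libraries (columns), as log2(value + 1) minus the median of the Regular diet libraries. The chaperone and degradation rows are mostly below 0 in CLDN1 mAb and Vehicle Control, Nupr1, Psat1, Phgdh and Trib3 are above 0 in all 12 of these libraries, and Regular diet replicate 1 departs from its group in many rows.

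In Vehicle Control against Regular diet livers, the set divided by role. Lower were 12 of 14 chaperone and folding genes and 4 of 4 genes of ER-associated degradation. Higher were 3 of 4 transcription factors (Ddit3, Atf3 and Nupr1), 2 of 5 feedback genes (Trib3 and Ddit4), 3 of 4 genes of serine and asparagine synthesis (Psat1, Phgdh and Asns) and the sensor gene Eif2ak3. Of the 35 genes, 9 rose (25.7%; 29.8% of all genes tested), 16 fell (45.7%; 20.7% of all genes tested) and 10 did not pass, so 25 were called where 50.5% of all genes were. Phgdh, counted among the 9, passed the filter on low values only through the groups where it is high. The median of the 35 was -0.40, and that of all genes tested 0.04. Vehicle Control was wholly above Regular diet for 6 genes (17.1%; 19.1% of all genes) and wholly below it for 8 (22.9%; 10.5% of all genes). In bulk tissue, fewer cells of a type and less RNA per cell cannot be told apart in these values. Spread between these individual mice is all that the p-values take into account.

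Among the 14 chaperones and folding enzymes, 12 fell, none rose, and the median difference was -0.92. The fall reached its largest size in Hyou1, which encodes the chaperone GRP170, a nucleotide exchange factor of BiP. Hyou1 lay between 2879 and 6457 in Vehicle Control, with a median of 4927, and at 15929, 12162, 13414, 19141 and 10707 in Regular diet replicates 1 to 5. Every Vehicle Control library was below every Regular diet library. The difference was -1.68 ± 0.22 (limma adjusted p = 6.96e-06), or 3.21-fold lower.

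Creld2, which encodes a secreted ER stress protein with EGF-like domains, lay between 667 and 1266 in Vehicle Control (median 1043). It stood at 10544 in Regular diet replicate 1 and at 1513, 1877, 3482 and 1664 in replicates 2 to 5. The groups did not overlap, and replicate 1 was far above the rest of its group. The difference of -1.50 ± 0.39 (adjusted p = 0.00345) was -1.03 ± 0.25 without that library (adjusted p = 0.00238). Manf, a secreted neurotrophic factor that binds BiP in the ER, behaved alike. It ranged from 2077 to 5092 in Vehicle Control (median 3592), with 26349 in Regular diet replicate 1 and 5650, 6492, 9231 and 4629 in replicates 2 to 5. The highest Vehicle Control library overlapped the lowest Regular diet library, and the difference was -1.25 ± 0.35 (adjusted p = 0.00656), or -0.84 ± 0.25 without Regular diet replicate 1 (adjusted p = 0.00846). Exons of Manf share 166 bases with 4930524O07Rik and 146 with Dcaf1 on the other strand, and 14 with Rbm15b on its own strand. Strand use in counting is not known, so the value of Manf is uncertain.

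Hspa5, whose promoter is shown above, ranged from 22592 to 49076 in Vehicle Control (median 31135). In Regular diet it was at 89781, 48362, 51219, 77566 and 41459 in replicates 1 to 5. Vehicle Control replicate 1 alone reached into the Regular diet range. The difference was -0.87 ± 0.24 (adjusted p = 0.00629), or 1.83-fold lower. Dnajc3, the BiP co-chaperone that also inhibits PERK, had the tightest Regular diet values of the chaperones that fell, at 15852, 14807, 15605, 16694 and 14473, against 6019 to 10717 in Vehicle Control (median 7292). The groups did not overlap, and the difference was -1.05 ± 0.15 (adjusted p = 1.7e-05).

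The other chaperones that fell were Sdf2l1 (-1.20), Dnajb11 (-1.02), Hsp90b1 (-0.97), which encodes GRP94, Pdia4 (-0.87), Calr (-0.75), Pdia6 (-0.70) and Canx (-0.55). Dnajb11 and Hsp90b1 were lower in every Vehicle Control library than in any Regular diet library. Exons of Hsp90b1 share 415 bases with 1810014B01Rik on the other strand, and 133 with Gm25745 and 84 with Gm15344 on its own strand. The value of Hsp90b1 is therefore uncertain, as is that of Manf. Calr, the calcium-binding lectin chaperone calreticulin, was a weak call (adjusted p = 0.0439). Without Regular diet replicate 1, where it stood at 117809 against 40863 to 53586 in the rest of the group, its difference was -0.49 (adjusted p = 0.121), and leaving out any of 6 other single libraries ended the call too (adjusted p from 0.0616 to 0.103). Pdia3 (-0.38 ± 0.19; adjusted p = 0.11) and Dnajb9 (-0.33 ± 0.25; adjusted p = 0.288), the IRE1-binding J-protein ERdj4, did not pass. Without Regular diet replicate 1, Dnajb9 was called lower (-0.55; adjusted p = 0.0447). Per kilobase of exon, Calr had the highest mean level of the 35 genes in every group, at 12981 ± 3142 in CLDN1 mAb (SD, n = 6), 12387 ± 4438 in Vehicle Control (n = 6) and 21466 ± 11037 in Regular diet (n = 5), and Phgdh had the lowest (33 ± 15.6 in CLDN1 mAb, 44.3 ± 19.9 in Vehicle Control and 3.51 ± 2.86 in Regular diet). Canx, which encodes the membrane-bound partner of calreticulin, was the only chaperone besides Dnajb9 for which Regular diet replicate 1 was the lowest of its group.

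**Figure D2:**
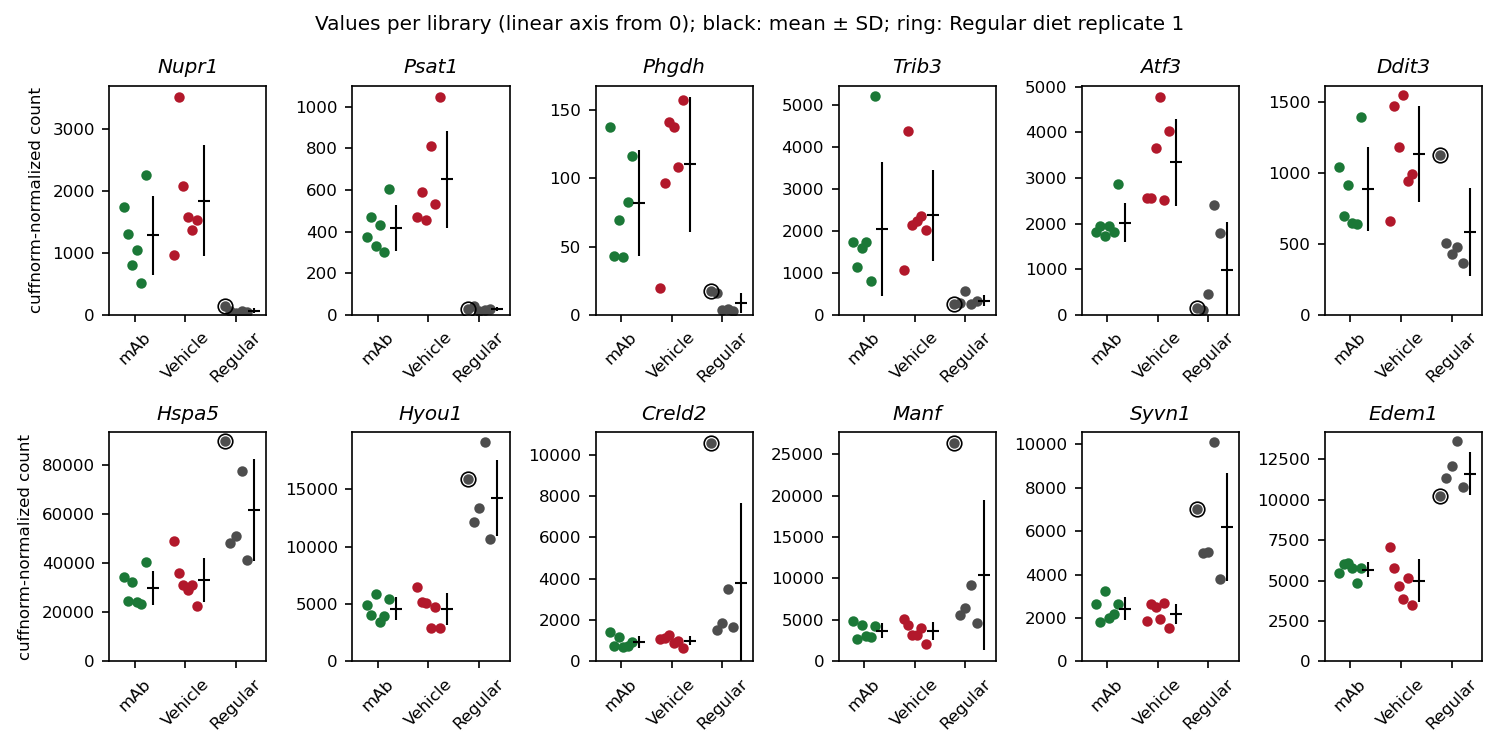
Deposited normalized counts of 12 of the genes in each library, on linear axes from 0, with CLDN1 mAb, Vehicle Control and Regular diet from left to right in each panel. Black marks are the mean ± SD, cut at 0 where the SD reaches below it, and a ring marks Regular diet replicate 1. The upper row holds genes called higher in Vehicle Control than in Regular diet livers, and the lower row genes called lower.

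All 4 genes of ER-associated degradation fell, with a median difference of -1.21. Syvn1, whose product HRD1 is the ubiquitin ligase of the pathway, ranged from 1547 to 2672 in Vehicle Control (median 2232), and in Regular diet it was at 7001, 4995, 5058, 10109 and 3801 in replicates 1 to 5. No library of a group reached into the other, and the difference was -1.44 ± 0.23 (adjusted p = 4.48e-05). Edem1, a lectin that hands misfolded glycoproteins to the ligase, ranged from 3473 to 7054 in Vehicle Control (median 4923), against 10222, 11315, 12074, 13642 and 10766 in Regular diet. These groups too did not overlap (-1.25 ± 0.16; adjusted p = 5.38e-06). Sel1l, the adaptor of HRD1, fell by 1.0 (adjusted p = 9.47e-05), also without overlap. Herpud1, a ubiquitin-like ER membrane protein that recruits the ligase, ranged from 4191 to 9271 in Vehicle Control (median 6883) and was at 7478, 16482, 14395, 22763 and 14823 in Regular diet replicates 1 to 5. Replicate 1, which was low here, made the only overlap, and the difference was -1.18 ± 0.25 (adjusted p = 0.000846), or -1.41 without it.

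Of the 3 sensors, Eif2ak3 rose and Ern1 and Atf6 did not pass, as did Xbp1. Eif2ak3, the gene of PERK, ranged from 1160 to 1443 in Vehicle Control (median 1329) and was at 381, 1085, 825, 1266 and 762 in Regular diet replicates 1 to 5. All but the highest Regular diet library lay below the Vehicle Control group, and the difference was 0.72 ± 0.24 (adjusted p = 0.0172). Without Regular diet replicate 1, the lowest, it was 0.45 ± 0.17 (adjusted p = 0.0306). Its exons share 485 bases with an unnamed gene model on the other strand.

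Ern1 ranged from 2405 to 4090 in Vehicle Control (median 2873) and was at 1973, 4742, 4487, 4393 and 4820 in Regular diet. Apart from replicate 1, every Regular diet library was above every Vehicle Control library. Over all libraries the difference was -0.40 ± 0.23 (adjusted p = 0.161), and without replicate 1 it was called lower, at -0.64 ± 0.18 (adjusted p = 0.00549). Atf6 showed the same pattern, with 2885 to 4132 in Vehicle Control (median 3571) and 2958, 5913, 4974, 5160 and 5186 in Regular diet. Its difference was -0.42 ± 0.17 (adjusted p = 0.0504), and -0.59 ± 0.13 without replicate 1 (adjusted p = 0.00148). Xbp1 ranged from 8631 to 22621 in Vehicle Control (median 12986), and was at 30462 in Regular diet replicate 1 and at 10547, 11192, 12263 and 10474 in replicates 2 to 5. Its difference was -0.08 ± 0.30 (adjusted p = 0.851) with replicate 1 and 0.21 ± 0.25 without it (adjusted p = 0.48), so no change in Xbp1 was detectable on the deposited scaling, whereas it was called higher on equal totals and after quantile normalization, as given below. The level of Hyou1 per 1000 of Xbp1 within a library was 292 to 449 in CLDN1 mAb, 272 to 563 in Vehicle Control and 523 to 1561 in Regular diet.

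Of the 4 transcription factors of the integrated stress response, Ddit3, Atf3 and Nupr1 rose, and Atf4, whose protein is controlled mainly in translation, did not pass. Nupr1, a small stress-induced chromatin protein, had the largest difference of the set. It ranged from 975 to 3519 in Vehicle Control (median 1556) and was at 147, 57.7, 34.1, 63.3 and 45.8 in Regular diet replicates 1 to 5. The groups were far apart, with a difference of 4.77 ± 0.40 (adjusted p = 3.95e-08), or 27.3-fold higher. Atf3, a stress-induced factor that represses many genes, ranged from 2516 to 4776 in Vehicle Control (median 3111). In Regular diet it was at 157, 98.4, 452, 2415 and 1803, so the Regular diet libraries differed widely among themselves. The highest Regular diet library stayed below the lowest Vehicle Control library, and the difference was 2.70 ± 0.62 (adjusted p = 0.00138).

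Ddit3, which encodes CHOP, ranged from 664 to 1550 in Vehicle Control (median 1087) and was at 1130 in Regular diet replicate 1 and at 511, 431, 476 and 368 in replicates 2 to 5. Without replicate 1 the groups did not overlap. The difference was 1.03 ± 0.29 with it (adjusted p = 0.00633) and 1.30 ± 0.25 without it (adjusted p = 0.00029). Exons of Ddit3 share 68 bases with Mars on the other strand and 105 with a second entry named Ddit3 on its own strand. Atf4 ranged from 4085 to 6997 in Vehicle Control (median 5478) and was at 7657, 5864, 6046, 5309 and 5405 in Regular diet. The groups overlapped throughout, and the difference of -0.15 ± 0.15 had a 95% interval from -0.46 to 0.17 (adjusted p = 0.435).

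Of the 5 feedback and effector genes, Trib3 and Ddit4 rose. Trib3 encodes a pseudokinase that restrains ATF4 and CHOP. It ranged from 1072 to 4380 in Vehicle Control (median 2199) and was at 253, 289, 574, 253 and 321 in Regular diet. All Vehicle Control libraries were above all Regular diet libraries, with a difference of 2.76 ± 0.39 (adjusted p = 1.51e-05), or 6.79-fold higher. Ddit4, the mTORC1 inhibitor REDD1, ranged from 396 to 703 in Vehicle Control (median 617), against 361, 354, 337, 361 and 316 in Regular diet. The Regular diet values were close together and all lower, and the difference was 0.72 ± 0.19 (adjusted p = 0.00386). Chac1, which degrades glutathione, was at 0.65 ± 0.52 (adjusted p = 0.309), Sesn2, a leucine sensor, at 0.14 ± 0.20 (adjusted p = 0.59), and Ppp1r15a, the eIF2 phosphatase subunit GADD34, at -0.07 ± 0.19 (adjusted p = 0.766). Chac1 was called higher, at 1.30 ± 0.44, with both Regular diet replicate 1 and Vehicle Control replicate 1 left out (adjusted p = 0.018), a setting chosen after the data were seen.

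The enzymes of serine synthesis act in the order Phgdh, Psat1, Psph, and the first of them and Psat1 rose while Psph did not pass. Psat1 ranged from 457 to 1048 in Vehicle Control (median 561) and was at 27, 44.6, 21.0, 24.8 and 30.6 in Regular diet. This was the smallest p of the set, with a difference of 4.39 ± 0.25 (adjusted p = 8.4e-10), or 21.0-fold higher. Phgdh, the enzyme of the entry step, ranged from 19.9 to 157 in Vehicle Control (median 123) and was at 17.2, 15.7, 3.50, 4.13 and 3.06 in Regular diet. The lowest Vehicle Control library was just above the highest Regular diet library. Phgdh had only the Regular diet replicates 1 and 2 at 10 or more in its group, so it passed the filter on low values through the other groups, and its difference of 3.60 ± 0.54 is given as a description with no test. Psph was at -0.13 ± 0.17 (95% interval from -0.49 to 0.23; adjusted p = 0.558), and its exons share 452 bases with Cct6a. Asns, asparagine synthetase, was called higher at 1.17 ± 0.43 (adjusted p = 0.0314), with 523 to 3293 in Vehicle Control (median 1194) and 656, 824, 221, 775 and 357 in Regular diet. The groups overlapped, and the call ended when any of 5 single libraries was left out (adjusted p from 0.0523 to 0.104). Within a library, the level of Psat1 per 1000 of Psph was 1057 to 2105 in CLDN1 mAb, 1398 to 4223 in Vehicle Control and 59.1 to 139 in Regular diet.

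**Figure D3:**
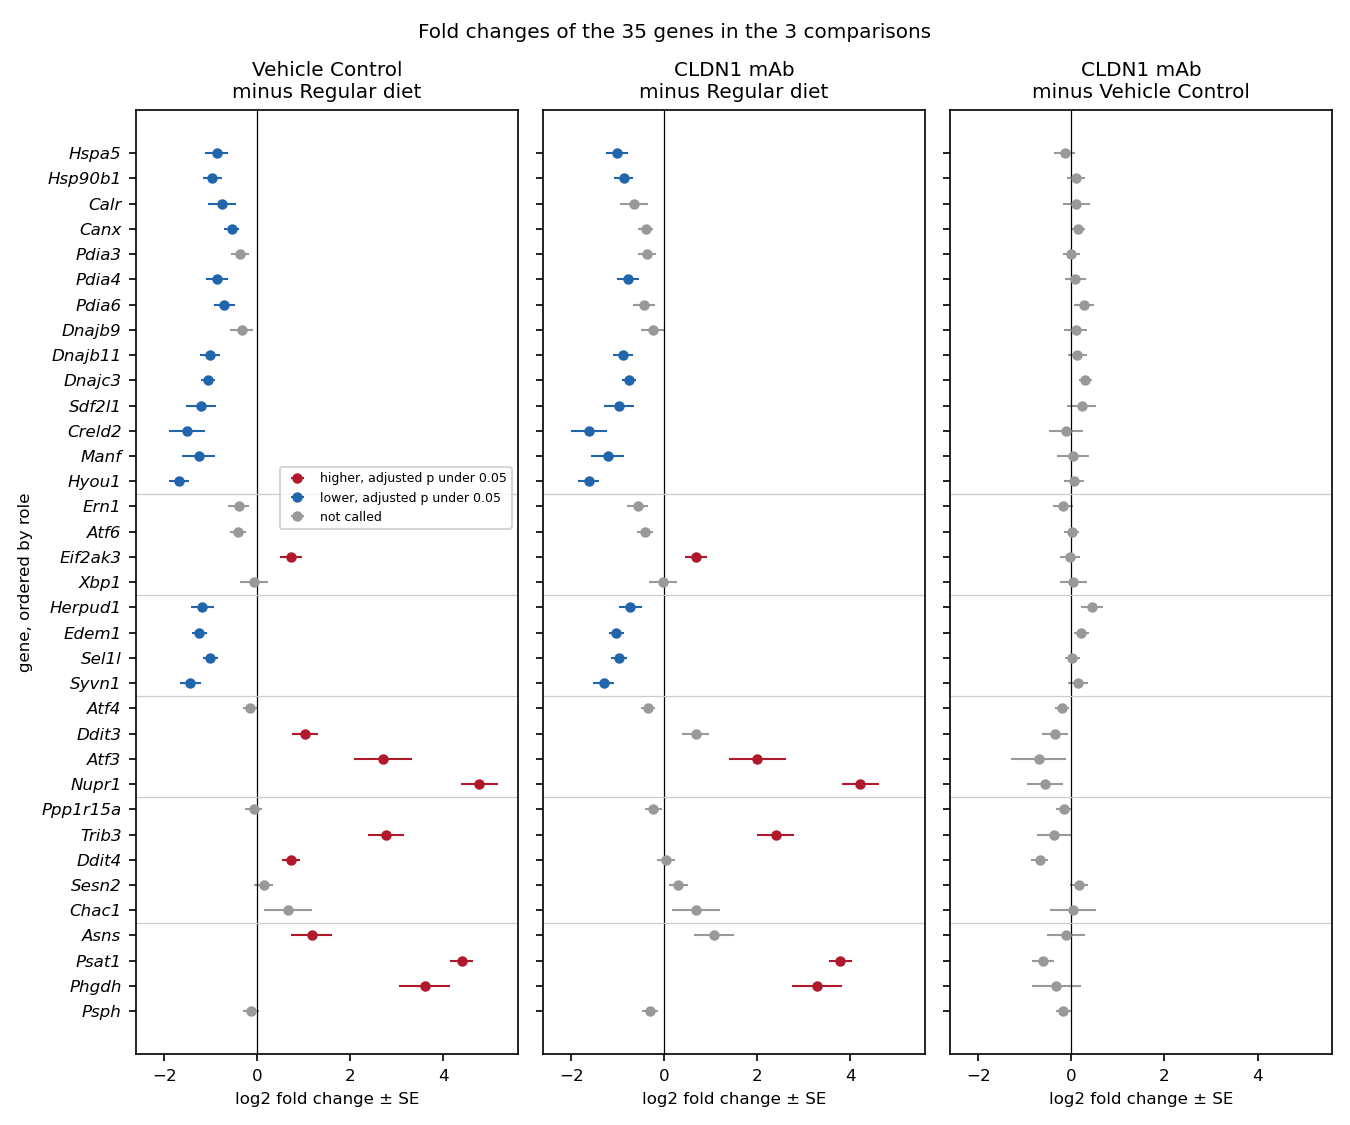
Log2 fold changes (horizontal axis, points with SE bars) of the 35 genes, ordered by role, in each of the 3 comparisons. Points in red or blue passed an adjusted p of 0.05 as higher or lower. In both comparisons with Regular diet the chaperone and degradation genes lie left of 0 and Nupr1, Psat1, Phgdh, Trib3 and Atf3 right of it, and in CLDN1 mAb minus Vehicle Control no gene passed.

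The counts of chaperones called depended on how the libraries were scaled. Bringing all libraries to the same total moved the median difference of all genes in Vehicle Control minus Regular diet by 0.61, with 9369 genes higher and 1264 lower (88.1% of calls higher, against 59% as deposited). The 35 genes then had 14 higher and 6 lower, with 4 of the 14 chaperones and 2 of the 4 degradation genes still among the lower, against 50.3% of all genes higher and 6.79% lower. With quantile normalization, 9 were higher (23.9% of all genes) and 10 lower (28% of all genes). With the same upper quartile per library, 9 were higher (32.2% of all genes) and 15 lower (16.8% of all genes). The genes called in the same direction under all 4 scalings were 7 higher (Eif2ak3, Ddit3, Atf3, Nupr1, Trib3, Psat1 and, with the limit given above, Phgdh) and 6 lower (Hyou1, Creld2, Dnajc3, Dnajb11, Edem1 and Syvn1). Hspa5 was not called with equal totals (-0.25; adjusted p = 0.286) or after quantile normalization (0.032; adjusted p = 0.906), nor was Canx, whose difference turned to 0.079 and 0.28. Xbp1 (0.55; adjusted p = 0.0307), Atf4 (0.48; adjusted p = 0.00585) and Psph (0.49; adjusted p = 0.014) were called higher when totals were made equal, while Psph was called lower after quantile normalization (-0.66; adjusted p = 0.0139). A ratio of genes within a library is not changed by 1 factor per library, as with equal totals or upper quartiles. Quantile normalization can change it, and the ratios here are of deposited values. The level of Ddit3 per 1000 of Hspa5 was 27.1 to 34.5 in CLDN1 mAb, 13.5 to 53.3 in Vehicle Control and 6.14 to 12.6 in Regular diet, and that of Trib3 per 1000 of Hyou1 was 208 to 958 in CLDN1 mAb, 166 to 848 in Vehicle Control and 13.2 to 42.8 in Regular diet. In both ratios the Regular diet range lay wholly below the other groups. Each pair sets a gene called higher over a gene called lower in these same libraries. The separation is therefore a description and not separate support for the division by role.

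**Figure D4:**
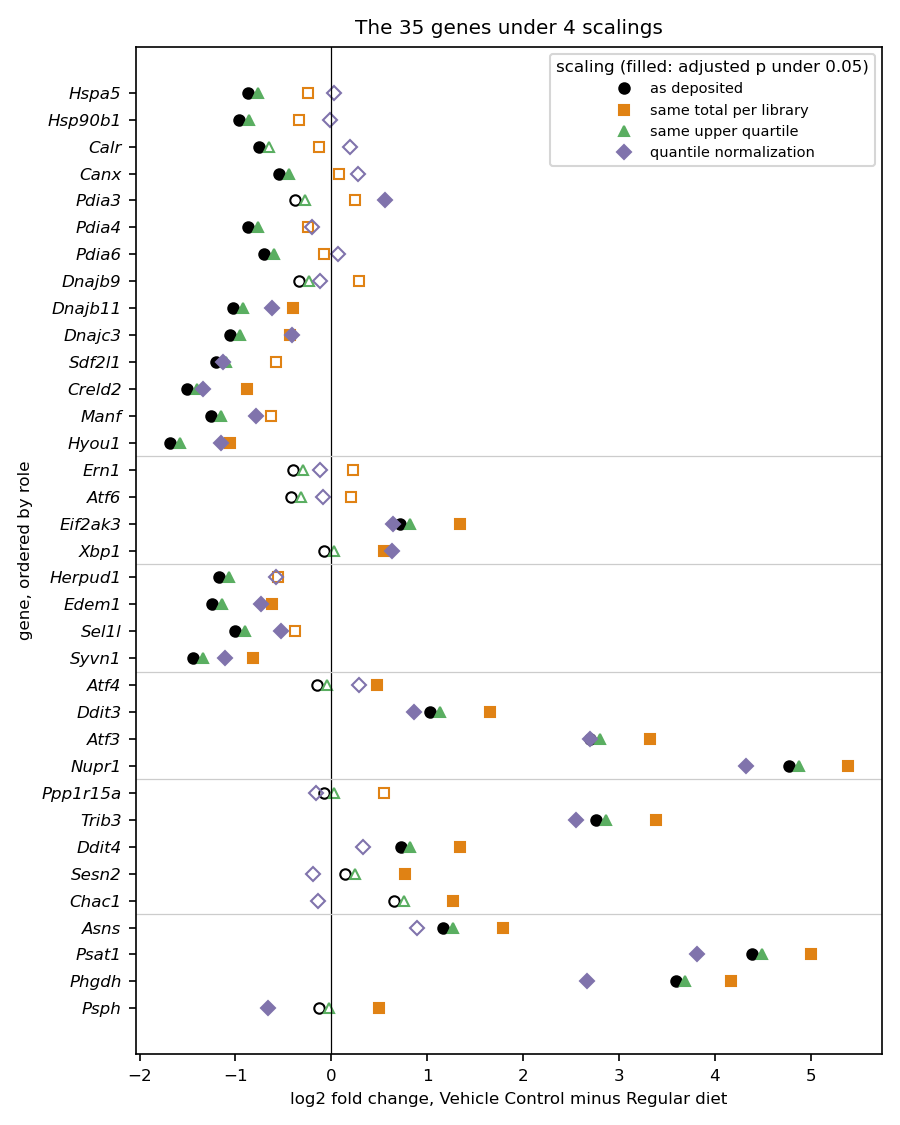
Log2 fold changes of the 35 genes in Vehicle Control minus Regular diet under 4 scalings of the libraries (symbols; filled where the adjusted p was under 0.05). The same total per library moves all genes to the right, and 13 genes were called in the same direction throughout, 7 higher and 6 lower.

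CLDN1 mAb livers were also compared with Regular diet livers, the same 5 libraries that Vehicle Control was set against. Of the 35 genes, 6 rose (17.1%; 24.8% of all genes tested) and 13 fell (37.1%; 14.1% of all genes tested), and 38.9% of all genes were called. The 6 were Nupr1 (4.21), Psat1 (3.78), Phgdh (3.28), Trib3 (2.39), Atf3 (2.0) and Eif2ak3 (0.69). Phgdh passed the filter on low values only through the groups where it is high, so its difference is a description with no test. Lower were 9 of 14 chaperones, led by Hyou1 at -1.63 ± 0.22 (adjusted p = 1.47e-05) and Creld2 at -1.62 ± 0.39, and all 4 degradation genes, led by Syvn1 at -1.30 ± 0.23. These counts too depended on the scaling. On equal library totals 6 chaperones and 2 degradation genes were lower, against 831 of the 18624 genes tested. After quantile normalization 5 chaperones and 3 degradation genes were lower, against 3725 of all genes. CLDN1 mAb was wholly above Regular diet for 4 genes (11.4%; 18.6% of all genes) and wholly below it for 10 (28.6%; 10.4% of all genes). Ddit3 (0.67 ± 0.29; adjusted p = 0.0719), Asns (1.06 ± 0.43; adjusted p = 0.0601) and Ddit4 (0.04 ± 0.19; adjusted p = 0.883) did not pass. Without Regular diet replicate 1, 7 were higher, now with Ddit3 (0.94; adjusted p = 0.00465), and 16 lower, now with Canx, Ern1 and Atf6. In that fit 27.6% of all genes were higher and 20.9% lower. Herpud1 (-0.73; adjusted p = 0.0296) was no longer called when any of 6 single libraries was left out, Eif2ak3 with any of 3, and Sdf2l1 without Regular diet replicate 4.

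The comparison of CLDN1 mAb with Vehicle Control asked what the antibody changed in the diseased liver. None of the 35 genes passed, and 0% of all genes tested did (limma; 1391 genes had an unadjusted p under 0.05, against 0 with an adjusted p under 0.05). No gene of the 35 had groups without overlap, against 0.0644% of all genes wholly higher and 0.258% wholly lower. The differences were 11 of 14 positive among chaperones and 4 of 4 among degradation genes, and 4 of 4 negative both among the transcription factors and among the serine and asparagine genes, given as a description without a test. On equal library totals the chaperones were positive in 3 of 14, with a median of -0.087, and the degradation genes in 2 of 4. After quantile normalization the chaperones were positive in 5 of 14, with a median of -0.057, and the degradation genes in 3 of 4. The transcription factors and the serine and asparagine genes were negative in 4 of 4 under each scaling. Over all genes tested, the median was -0.046 as deposited, -0.227 on equal totals and -0.0094 after quantile normalization. The signs thus move with the scaling of all genes. The smallest p of the set belonged to Ddit4. Ddit4 ranged from 248 to 554 in CLDN1 mAb (median 346) and from 396 to 703 in Vehicle Control (median 617). All 6 antibody mice were below the Vehicle Control mean, and the highest of them, replicate 6, was above the next by more than the spread of the others. The difference was -0.68 ± 0.18, with a 95% interval from -1.06 to -0.30 before adjustment over genes (adjusted p = 0.659).

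Psat1 ranged from 301 to 604 in CLDN1 mAb (median 401) and from 457 to 1048 in Vehicle Control (median 561), a difference of -0.61 ± 0.24 (adjusted p = 0.659). Nupr1 ranged from 521 to 2259 in CLDN1 mAb (median 1183) and from 975 to 3519 in Vehicle Control (median 1556), with -0.56 ± 0.38 (adjusted p = 0.707). For Psat1 only CLDN1 mAb replicates 2 (471) and 6 (604) reached into the Vehicle Control range, while for Nupr1 the groups overlapped widely. Among genes with a positive difference, Dnajc3 ranged from 8410 to 10171 in CLDN1 mAb (median 9140) and from 6019 to 10717 in Vehicle Control (median 7292), at 0.30 ± 0.14 (adjusted p = 0.659). Herpud1 ranged from 5818 to 9930 in CLDN1 mAb (median 9528) and from 4191 to 9271 in Vehicle Control (median 6883), at 0.45 ± 0.24 (adjusted p = 0.665). Edem1 ranged from 4870 to 6087 in CLDN1 mAb (median 5772) and from 3473 to 7054 in Vehicle Control (median 4923), at 0.22 ± 0.15 (adjusted p = 0.714). For Dnajc3 and Edem1 the CLDN1 mAb range lay within the Vehicle Control range.

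Of the key genes, Hspa5 was at 23253 to 40493 in CLDN1 mAb (median 28425; difference -0.15, 95% interval from -0.63 to 0.34), and Ddit3 at 638 to 1395 (median 807; -0.35, from -0.93 to 0.22). Atf4 was at 3819 to 5542 (median 4698; -0.20, from -0.50 to 0.10) and Xbp1 at 10252 to 19330 (median 12443; 0.05, from -0.55 to 0.65). Among the sensors, Ern1 was at 1725 to 3647 (median 2626; -0.17, from -0.64 to 0.29), Atf6 at 2635 to 4198 (median 3662; 0.01, from -0.33 to 0.35) and Eif2ak3 at 1009 to 1798 (median 1283; -0.03, from -0.50 to 0.45). These intervals still allow differences of the sizes shown. CLDN1 mAb replicate 6 was the highest of its group for all 4 transcription factors and for 4 of the 5 feedback genes. A fit with estimated weights per library, which gave weights from 0.0851 (Regular diet replicate 1) and 0.175 (Vehicle Control replicate 1) to 2.53 (CLDN1 mAb replicate 4), called 6 of the 35 genes and 5310 of all genes (28.5%). The 6 were Dnajc3 (0.52; adjusted p = 0.00411), Herpud1 (0.53; adjusted p = 0.0222) and Edem1 (0.39; adjusted p = 0.0212), higher, and Ddit4 (-0.78; adjusted p = 0.00404), Psat1 (-0.69; adjusted p = 0.0474) and Ddit3 (-0.60; adjusted p = 0.036), lower. With Regular diet replicate 1 and Vehicle Control replicate 1 left out in place of weights, 0 of all genes passed.

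Other genes of the pathways were counted in Vehicle Control against Regular diet. On the deposited scaling, 29.8% of all genes tested rose and 20.7% fell. Of 31 further folding enzymes and chaperones, 4 rose and 15 fell. Ganab, the glucosidase II catalytic subunit, fell by 0.96 (7366 ± 1465 in Vehicle Control, SD, n = 6, against 14135 ± 386 in Regular diet, n = 5), while Fkbp7 (1.60) and the reductase gene Dnajc10 (1.09) rose. Of 24 further degradation genes, 12 fell and 0 rose, with Rnf5 at -1.30, Derl2, a channel component, at -1.20 and Nploc4, a cofactor of the p97 ATPase, at -1.02. Of 28 genes of the translocon, signal peptidase and oligosaccharyltransferase, 8 fell, Sec63 (-0.82) among them, and 2 rose. Of 24 genes of ER exit and retrieval, 9 fell, with Sar1b, the small GTPase for large cargo, at -1.37, and 2 rose. Kdelr3, a receptor that returns escaped chaperones, rose to 254 ± 98.2 in Vehicle Control, against 23.1 ± 10.3 in Regular diet (3.41 ± 0.35; adjusted p = 4.28e-07). On equal library totals, where 50.3% of all genes were higher and 6.79% lower, the counts higher and lower were 9 and 2 for folding enzymes, 5 and 3 for degradation, 12 and 0 for the translocon list and 10 and 1 for exit and retrieval.

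On the side of the integrated stress response, 17 of 36 further ATF4 and CHOP targets rose and 7 fell. Over all genes tested, 29.8% rose and 20.7% fell on the deposited scaling. Fgf21, the hepatokine, was at 2328 ± 1153 in Vehicle Control and 102 ± 59.4 in Regular diet (4.52 ± 0.44; adjusted p = 2.18e-07). Aldh18a1, of proline synthesis, was at 2.73 and the glutamine transporter gene Slc1a5 at 2.47, whereas Cth, cystathionine gamma-lyase, fell by 2.25. Of 17 cytosolic aminoacyl-tRNA synthetases, 8 fell and 1 rose. Tars fell to 2767 ± 576 in Vehicle Control, against 11590 ± 891 in Regular diet (-2.09 ± 0.15; adjusted p = 9.29e-09), followed by Mars (-1.22), which overlaps Ddit3, and Aars (-1.15), and Gars rose (0.56; adjusted p = 0.022, and 0.0597 at the weakest when 1 library was left out). Of 18 genes of the eIF2 kinases, phosphatase and eIF2B, 8 fell and 1, Impact, an inhibitor of the kinase GCN2, rose (1.30). Of 18 further sensors, proteases and bZIP factors 6 rose and 4 fell, near the shares over all genes. Among them, Creb3l1, an ATF6 relative of matrix-secreting cells, was at 2.77, Nfya at 1.11 and Tmbim6 at -1.0. Cytosolic heat shock genes fell in 13 of 22 and rose in 2, with Fkbp4 (-1.23), Hsph1 (-1.13) and Cryab (2.16), and mitochondrial stress genes fell in 9 of 13, with Clpx at -1.61, Trap1 at -1.27 and Spg7 at -0.93. On equal library totals (50.3% of all genes higher and 6.79% lower), higher and lower were 22 and 4 for ATF4 and CHOP targets, 8 and 3 for synthetases, 4 and 0 for the eIF2 list, 11 and 1 for sensors, 3 and 2 for heat shock and 1 and 2 for mitochondrial genes. None of the genes in these lists passed in CLDN1 mAb against Vehicle Control.

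**Figure D5:**
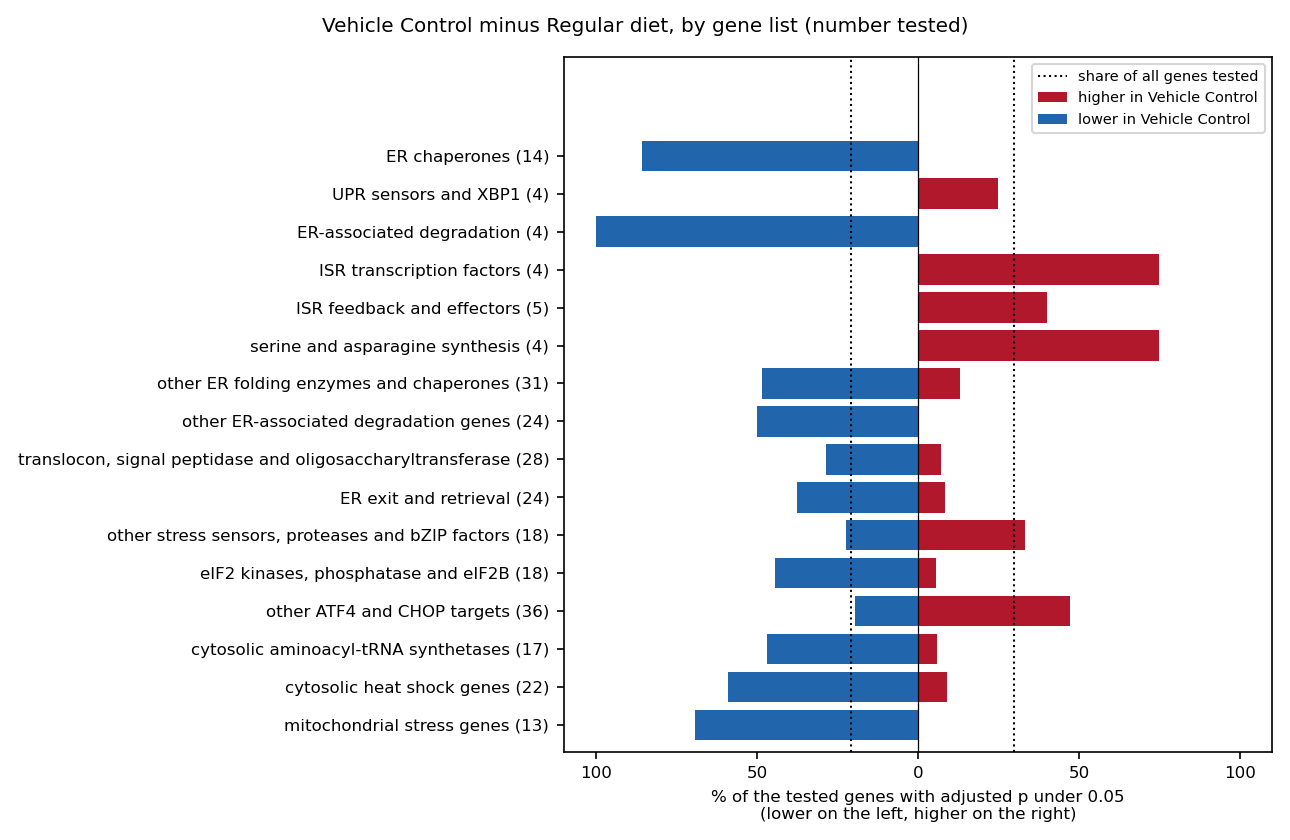
Shares of the tested genes of each list that passed an adjusted p of 0.05 as lower (left, blue) or higher (right, red) in Vehicle Control minus Regular diet, on the deposited scaling, with the number tested in brackets. Dotted lines are the shares over all genes tested, 20.7% lower and 29.8% higher.

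Markers of the liver's cell types moved along with these groups. In Vehicle Control against Regular diet, 29.8% of all genes tested rose and 20.7% fell. Of 14 hepatocyte markers, 12 fell in this comparison and 1, Serpina1c, of a family of near-identical genes, rose. The summed level of the 14 was 1005050 to 1716030 in CLDN1 mAb, 432178 to 1660140 in Vehicle Control and 2254120 to 4348290 in Regular diet. Alb was listed at 0 in every library and was not used. All 10 cholangiocyte markers rose, and their sum was 42098 to 81065 in CLDN1 mAb, 46688 to 104266 in Vehicle Control and 4123 to 5483 in Regular diet. Of 12 markers of stellate cells and fibroblasts 10 rose, with sums of 33933 to 109606 in CLDN1 mAb, 38330 to 153978 in Vehicle Control and 12463 to 20057 in Regular diet. Of 10 T and NK cell markers 8 rose, with sums of 858 to 2199 in CLDN1 mAb, 939 to 2357 in Vehicle Control and 292 to 742 in Regular diet. Of 14 macrophage and monocyte markers, 9 rose and 3 fell, and the sum was 114365 to 201898 in CLDN1 mAb, 78424 to 292684 in Vehicle Control and 14876 to 46143 in Regular diet. Of 13 plasma and B cell markers, 3 rose and 1 fell, and of 10 endothelial markers, 0 rose and 2 fell. The endothelial sum was 3913 to 14609 in CLDN1 mAb, 3374 to 17973 in Vehicle Control and 13488 to 17713 in Regular diet. That of plasma and B cells was 17522 to 40392 in CLDN1 mAb, 9967 to 73557 in Vehicle Control and 17407 to 24854 in Regular diet. Of 8 pancreatic acinar markers 1 was tested, Cela1, and it fell; the sum was 633 to 1289 in CLDN1 mAb, 631 to 818 in Vehicle Control and 812 to 5120 in Regular diet. Of the markers used, which leave out Alb, none was at 0 throughout a group except the acinar genes Pnlip and Cela3b in Regular diet. Alb, itself a hepatocyte marker, was at 0 in every group. On equal library totals, 9369 of the 18624 genes tested were higher and 1264 lower. Counts higher and lower were 1 and 10 for hepatocytes, 10 and 0 for cholangiocytes and 11 and 0 for stellate cells and fibroblasts. They were 9 and 0 for T and NK cells, 10 and 2 for macrophages and monocytes and 7 and 1 for plasma and B cells. No endothelial or acinar marker was called on that scaling. The part of these cell types in the levels of the 35 genes was not tested.

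Within groups, the chaperones varied by library. Vehicle Control replicate 1 was highest of its group for 12 of the 14 and replicate 6 lowest for 13. In CLDN1 mAb, replicate 1 was highest for 7 and replicate 5 lowest for 8. In Regular diet, replicate 1 was highest for 10 (of all genes tested, for 42.2%) and replicate 4 for the other 4. The 5 feedback genes of the integrated stress response were all lowest of their group in Vehicle Control replicate 1. Deposited totals too were highest of their group in Vehicle Control replicate 1 (42.1 M) and Regular diet replicate 1 (74.6 M), and lowest in Vehicle Control replicate 6 (29.7 M). In CLDN1 mAb the highest total was that of replicate 3 (42.8 M) and the lowest that of replicate 6 (35.4 M). The part of these totals in the order was not tested. Nor was the part of the length and GC trends of Vehicle Control replicate 1 and Regular diet replicate 1. With both left out, 10 of the 35 genes were higher in Vehicle Control against Regular diet (34.4% of all genes) and 20 lower (27.4% of all genes), and 61.7% of all genes were called.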

How the data were processed

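The authors deposited 1 table of normalized signal values per gene and library, made by cuffnorm per the file headers. The submitters' processing notes name Cufflinks 2.2.1 and the mouse build mm10. For aligner, annotation release, strand setting and scaling option, the entry is: not given in the sources used here. Raw counts were not used, and no count model was run. Depth was estimated from the step between low values (up to 20 steps), of which 97.8 to 98.3% per library lay within 0.05 of a whole step.

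Symbols were found for 52398 gene identifiers (99.7%). A gene was tested where 5 or more libraries held 10 or more (18624 genes). The log2(value + 1) of all 17 libraries was fitted by group in limma-trend (limma 3.58.1, R 4.3.3). Tests were two-sided, p-values were adjusted by Benjamini-Hochberg across the tested genes, and 0.05 was the threshold. Every adjusted p is from limma. The fit was tested on simulated data. Tables and figures were made in Python 3.11.15. Motifs were searched on both strands of RefSeq promoters (GRCm38.p6), and exon overlaps were read from a GENCODE annotation.

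The genes and lists were chosen with earlier results of these data known. Library values are shown for the 5 genes that differed most in each direction in Vehicle Control minus Regular diet, the 3 of lowest p in each direction in CLDN1 mAb minus Vehicle Control, and Ern1, Atf6, Eif2ak3, Xbp1, Atf4, Ddit3 and Hspa5. Those of Dnajc3, Herpud1, Ddit4 and Asns in other comparisons were added after they were seen. Of other lists, up to 3 genes by p and 1 called in the opposite direction are named. Alternatives were other scalings, filters, pseudocounts, weights, blocks and libraries left out. Leaving out Regular diet replicate 1 and Vehicle Control replicate 1 together was chosen after seeing the data.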

Additional observations from a re-analysis of the deposited data

Results flagged for a closer look

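In 105 sets of values (35 genes in 3 groups), 18 had a highest or lowest library whose gap to its nearest neighbour was large for the range of the group by Dixon's limit, where chance flags about 1 in 20. Of the 18, 12 were in Regular diet replicate 1. It was highest of its group for Calr (117809; the others at most 53586), Pdia6 (35038), Xbp1 (30462), Manf (26349), Dnajb11 (12430), Creld2 (10544), Sdf2l1 (5854), Ddit3 (1130), Psph (457) and Nupr1 (147), and lowest for Canx (15587; the others at least 20993) and Ern1 (1973; the others at least 4393). The deviation of that library with exon length and GC content is given above, and its part in these values was not tested.

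In CLDN1 mAb, replicate 6 was highest for Trib3 (5199; the others at most 1745), Atf3 (2865; at most 1956) and Ddit4 (554; at most 358), and replicate 5 was lowest for Pdia6 (10543; the others at least 14777). In Vehicle Control, replicate 2 was highest for Asns (3293; the others at most 1430). In Regular diet, replicate 3 was highest for Trib3 (574; the others at most 321).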

How the results depend on the processing

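In Vehicle Control minus Regular diet, the same total per library gave 14 genes higher and 6 lower, and quantile normalization 10 lower. Differences that turned were Canx (0.079), Xbp1 (0.55), Atf4 (0.48) and Psph (0.49) with the same total, and Hspa5 (0.032), Calr (0.20), Canx (0.28), Pdia3 (0.56; adjusted p = 0.00233), Pdia6 (0.071) and Xbp1 (0.63; adjusted p = 0.0116) after quantile normalization. Leaving out 1 library gave 23 to 27 genes called (8 to 9 higher, 15 to 18 lower) and 8486 to 10680 of all genes. In CLDN1 mAb minus Regular diet, 8 were lower with the same total (831 of all genes) and 9 after quantile normalization (3725 of all genes). Library weights called 29 (21 lower) and 11344 of all genes. Leaving out 1 library gave 17 to 23 called (5 to 7 higher, 11 to 16 lower) and 6342 to 9028 of all genes. In CLDN1 mAb minus Vehicle Control, no filter on low values called 2 of all genes, none of them among the 35, library weights called 6 (3 higher, 3 lower) and 5310 of all genes, and leaving out 1 library called 0. The cause was not tested. The pseudocounts 0.1 and 10, a filter at 100 and a fit with no intensity trend kept every count of genes called within 1.5 times of its main value.

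The deviations of libraries with the same number correlated by -0.34 to 0.02 in Vehicle Control and Regular diet (over 0.1 in 0 of 5 pairs), by -0.20 to 0.66 in CLDN1 mAb and Vehicle Control (2 of 6) and by -0.05 to 0.59 in CLDN1 mAb and Regular diet (3 of 5). In no comparison was every pair over 0.1, so the numbers were not taken as a pairing. With the replicate number as a block, 19 of the 35 genes were called in Vehicle Control minus Regular diet (7 higher, 12 lower; 6284 of all genes), 25 in CLDN1 mAb minus Regular diet (7 higher, 18 lower; 7865 of all genes) and 0 in CLDN1 mAb minus Vehicle Control. A block of library codes called 0 there too. Regular diet libraries held codes 31 to 35, so a step tied to these codes and the group cannot be told apart. Phgdh, at few fragments in Regular diet, was at 3.8 in Vehicle Control minus Regular diet with a pseudocount of 0.1 and at 2.58 with 10.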
